A study of Mus musculus with 6 samples.

Results

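The genes of cholesterol synthesis and its control by SREBP2 were followed in the livers of mice that lack Zpbp2. The set was chosen by name from knowledge of the pathway, with earlier results of these data known, and holds 28 genes. They comprise 18 enzymes in pathway order, 5 genes of the machinery that controls SREBP2, and 5 genes of sterol uptake and transport. Of the 28, 27 had a row among the 37991 genes of the count table, and all 27 passed the filter on low counts, which left 14686 genes in all. Hmgcs1, which makes HMG-CoA, was not analysed here, because the Ensembl ID that the gene names give for it is not a row of the table.

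The Zpbp2 KO group consisted of 3 livers from B6.Zpbp2-/- males, and the WT group of 3 livers from C57BL/6J males. All animals were 12 weeks old. Zpbp2 encodes zona pellucida binding protein 2, a protein of the sperm head, and the labels name no tissue limit of its deletion. The sources used here do not say what the allele deletes, nor the feeding state and hour at which livers were taken. The series title names lipid metabolism, and the comparison addresses which liver transcripts differ without Zpbp2.

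Poly(A) RNA was sequenced, with 37904891 to 52955687 counts per library. Zpbp2 had 0 counts in each Zpbp2 KO library, against 4, 13 and 7 counts in WT replicates 1 to 3. The hepatocyte markers showed the labelled tissue, with albumin alone taking 6.68% to 7.83% of counts in every library. Zpbp2 KO replicate 2 stood apart in markers of other liver cells. All 7 Kupffer cell and macrophage markers and all 5 endothelial markers were lowest in that liver. Summed Kupffer cell markers came to 273, 91.4 and 296 counts per 1000000 (CPM) in Zpbp2 KO replicates 1 to 3, against 174 to 232 CPM in WT. Endothelial markers summed to 92.9 CPM in Zpbp2 KO replicate 2 and 138 to 228 CPM in the other 5 livers. Of the 4 testis markers, 0 passed the filter, and of the 6 adipose and pancreas markers, 2 did. In whole liver, fewer cells of a type and less RNA per cell cannot be told apart.

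Cholesterol is built from acetyl-CoA through mevalonate, farnesyl diphosphate, squalene and lanosterol, and the liver is a main site of this synthesis. SREBP2 is a membrane-bound transcription factor that switches on the enzymes when sterols in the endoplasmic reticulum run low. SCAP carries it to the Golgi for cleavage, and the INSIG proteins hold SCAP back when sterols are plentiful. NF-Y, which binds CCAAT boxes, is known as a partner of SREBP2 at many of these promoters.

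Promoter sequence was read as a feature of the members that is not taken from the counts. RefSeq windows on GRCm38.p6, from 250 bases before to 50 bases after a start, were read for 23 of the 28 genes. Fdps, Fdft1, Sqle, Npc1 and Stard4 were not searched, so the counts of members below do not cover them. The windows were searched on both strands for CCAAT, the NF-Y box, and for TCACNCCAC, a form of the sterol regulatory element; no match of either kind overlapped a match of the other kind. A CCAAT box lay in a window of 20 of the 23 genes, while 41.1% of all 27025 genes with a window held it. Among the enzymes 14 of 15 held it, and among the other members 6 of 8. The sterol regulatory element letters were found in 1 of the 23, Hmgcs1, and in 1.44% of all genes. These windows were made on a different build from the counts, a match is only a match of letters, and a window without one says nothing about the factor.

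Hmgcs1, Mvk, Mvd and Insig1 are shown because they hold the single sterol element, the most CCAAT boxes, the boxes of the enzyme with the largest fold change among those with a window, and the box of a feedback gene. Capitals mark CCAAT boxes on either strand and, in Hmgcs1, the sterol element, which runs from -137 to -129 with the start base counted as 0. The Hmgcs1 window is chr13:119690101-119690400, plus strand, and the Mvk window is chr5:114444019-114444318, plus strand. The Mvd window is chr8:122443373-122443672, minus strand, and the Insig1 window is chr5:28071162-28071461, plus strand. In Mvk, 4 boxes on the minus strand start at -173, -120, -67 and -14, each 53 bases from the next.
Hmgcs1: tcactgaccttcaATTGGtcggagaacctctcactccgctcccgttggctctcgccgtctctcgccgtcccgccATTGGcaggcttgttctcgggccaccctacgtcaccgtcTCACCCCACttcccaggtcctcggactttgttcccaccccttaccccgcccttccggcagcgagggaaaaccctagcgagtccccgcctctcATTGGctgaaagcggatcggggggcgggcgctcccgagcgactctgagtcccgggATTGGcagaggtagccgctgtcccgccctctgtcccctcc
Mvk: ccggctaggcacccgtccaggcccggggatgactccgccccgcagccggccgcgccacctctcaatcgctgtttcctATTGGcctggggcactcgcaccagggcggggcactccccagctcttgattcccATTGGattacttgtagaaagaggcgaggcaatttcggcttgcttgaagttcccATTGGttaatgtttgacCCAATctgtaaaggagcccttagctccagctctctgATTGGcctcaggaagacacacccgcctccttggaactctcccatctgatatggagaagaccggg
Mvd: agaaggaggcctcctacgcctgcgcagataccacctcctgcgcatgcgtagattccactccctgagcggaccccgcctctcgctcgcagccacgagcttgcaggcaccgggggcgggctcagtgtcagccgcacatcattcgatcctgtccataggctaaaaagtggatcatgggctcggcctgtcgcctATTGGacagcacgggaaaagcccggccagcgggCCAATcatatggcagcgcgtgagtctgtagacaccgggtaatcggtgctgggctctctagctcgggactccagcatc
Insig1: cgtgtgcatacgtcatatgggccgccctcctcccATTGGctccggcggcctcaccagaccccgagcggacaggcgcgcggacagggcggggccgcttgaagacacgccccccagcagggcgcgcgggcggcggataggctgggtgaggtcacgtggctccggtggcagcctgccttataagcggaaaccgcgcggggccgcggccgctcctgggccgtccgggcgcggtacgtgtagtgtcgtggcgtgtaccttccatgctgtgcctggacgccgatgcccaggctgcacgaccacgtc

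The synthesis enzymes stood slightly above WT in Zpbp2 KO livers along most of the pathway, but no enzyme passed the test. Of 17 tested enzymes 15 had a log2 fold change above 0, with a median of 0.24, while 52.9% of all tested genes lay above 0 with a median of 0.01. The values ran from -0.12 for Hsd17b7 to 0.46 for Fdps. Of the 27 members 0 were called at an adjusted p below 0.05 in edgeR's quasi-likelihood fit, where 0.0136% of all genes were. DESeq2 called 0 members too, where it called 0.518% of genes. At an unadjusted p below 0.05 in edgeR, 6 members were higher, all of them enzymes, and 0 were lower, against 2.86% of all genes higher and 2.93% lower. DESeq2 gave 3 and 0 at that unadjusted threshold.

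That count of 6 rested on few libraries. It was 1 without WT replicate 1, 2 without WT replicate 2 and 3 without Zpbp2 KO replicate 1, and it was 3 when libraries were scaled by their totals. WT replicate 1 was the lowest liver for 12 of the 17 enzymes, and for 2885 of all 14686 genes. The median of the enzymes was 0.18 without that liver, and 15 enzymes still lay above 0.

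Markers of liver cells and blood were measured beside the enzymes, and edgeR called 0 of them. Of the 9 hepatocyte markers 8 lay above 0 (median 0.16), and they summed to 107700 to 113600 CPM in Zpbp2 KO livers and 96640 to 105400 CPM in WT livers. Tat, a transaminase of tyrosine breakdown, was the exception (log2 fold change -0.43 ± 0.148). All 5 erythroid markers lay above 0 (median 1.21), and they summed to 307, 359 and 170 CPM in Zpbp2 KO livers, against 154, 227 and 226 CPM in WT livers, with 4 of the 5 lowest in WT replicate 1. The counts of single globin genes are uncertain, because their sequences are nearly identical. All 7 markers of T and NK cells (median 0.31), 4 of 5 of B and plasma cells (0.40), 3 of 4 of cholangiocytes (0.22) and 2 of 5 of stellate cells (-0.15) lay above 0. The part of these cells in the enzyme values was not tested.

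**Figure D1:**
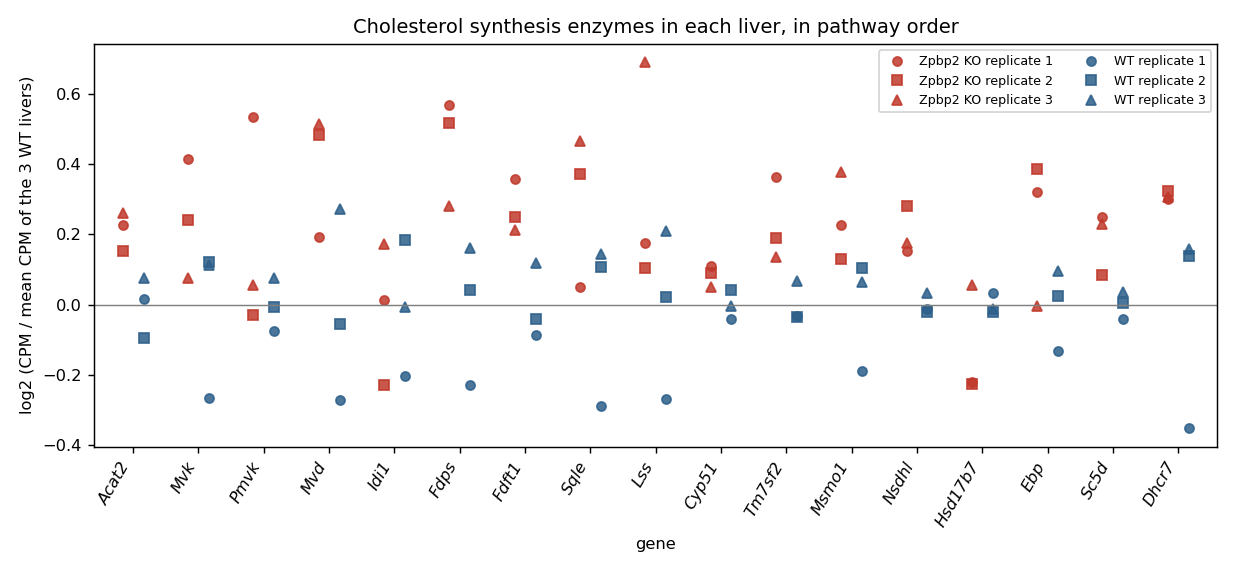
Level of each tested enzyme in each liver, as log2 of CPM over the mean of the WT livers (vertical axis), with genes in pathway order (horizontal axis). Red symbols are the 3 Zpbp2 KO livers and blue the 3 WT livers, with a shape per replicate; the blue circles of WT replicate 1 are the lowest symbol for 12 of 17 genes.

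From acetyl-CoA to farnesyl diphosphate, 5 of 6 tested enzymes lay above 0. Fdps, the synthase that makes farnesyl diphosphate, had 377, 363 and 309 CPM in the Zpbp2 KO livers, against 217, 262 and 284 CPM in the WT livers. Every knockout liver was above every WT liver, and Zpbp2 KO replicate 3 was the nearest to WT. The log2 fold change of 0.46 ± 0.130 (± SE) was the largest among the 27 members and was not called (edgeR quasi-likelihood, Benjamini-Hochberg adjusted p = 0.704). Without WT replicate 1 it was 0.36.

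Acat2, the cytosolic thiolase that joins acetyl-CoA units, had 69.0, 65.6 and 70.8 CPM in Zpbp2 KO livers, against 59.6, 55.3 and 62.2 CPM in WT livers. Its groups did not overlap, with a log2 fold change of 0.21 ± 0.0926, though reads of its close paralog Acat3 may have been split with it or dropped. Mvd, which decarboxylates mevalonate diphosphate, had 29.4, 35.9 and 36.7 CPM in Zpbp2 KO livers, against 21.3, 24.8 and 31.1 CPM in WT livers. Here WT replicate 3 lay above Zpbp2 KO replicate 1, so the groups overlapped, with a log2 fold change of 0.40 ± 0.158.

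Mvk and Pmvk, the kinases that add phosphates to mevalonate, overlapped between the groups. Mvk averaged 30.4 ± 3.55 CPM in Zpbp2 KO livers and 25.5 ± 3.72 CPM in WT livers (SD, n = 3 each), a log2 fold change of 0.25 ± 0.142. Pmvk averaged 60.6 ± 13.4 CPM in Zpbp2 KO livers, raised by replicate 1 at 76.0 CPM, and 52.5 ± 2.78 CPM in WT livers. Its log2 fold change of 0.21 ± 0.152 was 0.013 without Zpbp2 KO replicate 1 and 0.061 with offsets for transcript length and GC content. Idi1, the isomerase between the isoprenoid building blocks, was level, at 57.1 ± 7.87 CPM in Zpbp2 KO livers and 57.3 ± 7.64 CPM in WT livers. Its log2 fold change of -0.0049 turned to 0.09 without Zpbp2 KO replicate 2 and to 0.10 without WT replicate 2.

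The 3 enzymes from farnesyl diphosphate to lanosterol all lay above 0. Fdft1, squalene synthase, had 172, 160 and 156 CPM in Zpbp2 KO livers, against 127, 131 and 146 CPM in WT livers, with no overlap and a log2 fold change of 0.27 ± 0.0970. Exons of Fdft1 share 774 bases (18.3% of its exon length) with Ctsb on the opposite strand, and the strand setting of the counting is not given, so its values are less certain. Sqle, the oxygenase that commits squalene to sterols, had 90.3, 113 and 120 CPM in Zpbp2 KO livers, against 71.4, 93.8 and 96.2 CPM in WT livers. Lss, which closes the sterol rings, had 73.0, 69.5 and 104 CPM in Zpbp2 KO livers, against 53.7, 65.6 and 74.8 CPM in WT livers. Both overlapped, and for both the highest liver was Zpbp2 KO replicate 3 and the lowest WT replicate 1. The log2 fold change of Lss, 0.35 ± 0.182, ran from 0.139 to 0.455 with a library left out.

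From lanosterol to cholesterol 7 of 8 enzymes lay above 0, and 6 of them showed no overlap. Tm7sf2, a sterol reductase, had 201, 179 and 172 CPM in Zpbp2 KO livers, against 153, 153 and 164 CPM in WT livers. Its exons share 12.1% of their length with Vps51 on the same strand, which makes its count less certain. Nsdhl, which removes a carboxyl group in demethylation, had 105, 114 and 106 CPM in Zpbp2 KO livers, against 93.2, 92.7 and 96.4 CPM in WT livers. These 2 genes reached log2 fold changes of 0.23 ± 0.0972 and 0.20 ± 0.0868.

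Dhcr7, the reductase that makes cholesterol itself in the pathway branch through dehydrocholesterol, was even among the knockouts and uneven among WT. It had 124, 126 and 124 CPM in Zpbp2 KO livers, against 78.8, 111 and 112 CPM in WT livers. The groups did not overlap, and its log2 fold change was 0.31 ± 0.140, and 0.16 without WT replicate 1. Msmo1, a demethylating oxygenase, had 186, 174 and 206 CPM in Zpbp2 KO livers, against 139, 171 and 166 CPM in WT livers. Sc5d, a desaturase, averaged 640 ± 39.6 CPM in Zpbp2 KO livers and 561 ± 14.8 CPM in WT livers. Neither gene overlapped between the groups.

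Cyp51, the lanosterol demethylase, was the steadiest member, with 200 to 208 CPM in Zpbp2 KO livers and 188 to 199 CPM in WT livers. The groups just failed to overlap, with a log2 fold change of 0.08 ± 0.0838. Ebp, the isomerase of the sterol ring, averaged 231 ± 32.1 CPM in Zpbp2 KO livers and 195 ± 15.4 CPM in WT livers, with overlap through Zpbp2 KO replicate 3 at 194 CPM. Hsd17b7, a keto reductase, was the exception of this stretch, with 69.2, 68.8 and 83.8 CPM in Zpbp2 KO livers, against 82.4, 79.3 and 79.9 CPM in WT livers. Its Zpbp2 KO replicate 3 was above all WT livers and the other 2 were below them.

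Counted over the pathway, 9 of 17 enzymes were higher in Zpbp2 KO livers without overlap between the groups, against 5.56% of all tested genes, and 0 were lower without overlap, against 6.01%. The 9 became 5 when libraries were scaled by their totals. Summed over the 17 enzymes, the level was 2782, 2653 and 2688 CPM in Zpbp2 KO livers, against 2128, 2343 and 2429 CPM in WT livers. The lowest knockout liver lay above the highest WT liver, also with library totals (2516 CPM against 2446 CPM). The sum leans on abundant genes such as Sc5d. As an average over genes of each liver's log2 deviation from the 6-liver mean, which weighs genes alike, the livers stood at 0.13, 0.08 and 0.13 for Zpbp2 KO, against -0.25, -0.08 and -0.01 for WT.

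**Figure D2:**
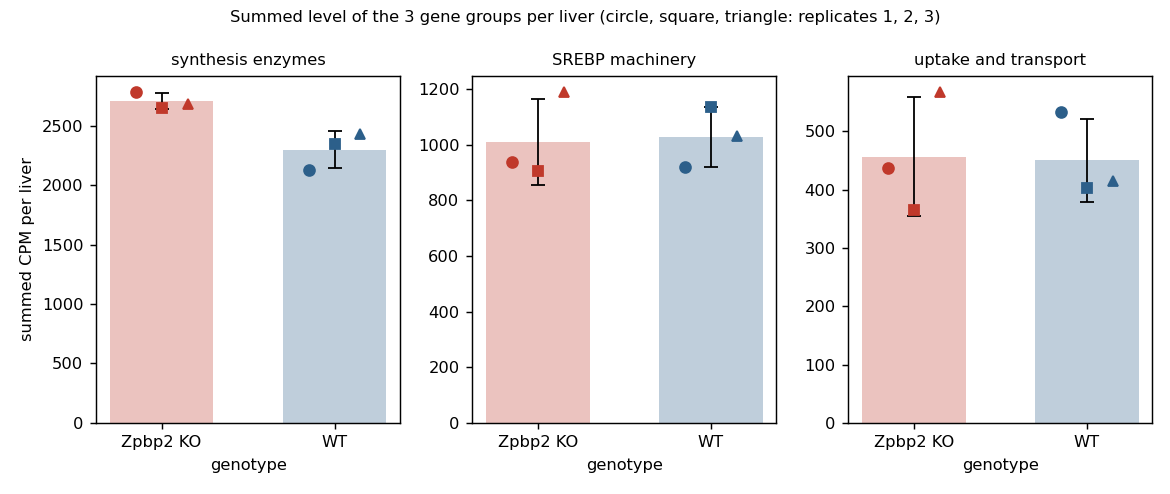
Summed CPM per liver (vertical axis, from 0) over the 17 tested enzymes, the 5 genes of the SREBP machinery and the 5 genes of uptake and transport. Bars are means of 3 livers with SD, symbols are livers; the Zpbp2 KO and WT livers separate for the enzymes (2653 to 2782 against 2128 to 2429 CPM) and overlap for the other groups.

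The genes that control SREBP2 lay on either side of 0, with 2 of 5 above it and a median of -0.04. Srebf2, which encodes SREBP2, had 62.7, 61.6 and 61.0 CPM in Zpbp2 KO livers, against 53.7, 69.7 and 66.6 CPM in WT livers. The knockout livers lay inside the WT range. Its log2 fold change of -0.04 ± 0.115 turned to 0.04 without WT replicate 2 and to 0.02 with offsets for transcript length and GC content. Scap, the escort of SREBP2, averaged 186 ± 11.4 CPM in Zpbp2 KO livers and 182 ± 8.24 CPM in WT livers. Its exons share 13.2% of their length with 5830462I19Rik on the opposite strand.

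Of the 27 tested members 1 was lower without overlap, against 6.01% of all tested genes. This was Mbtps1, the Golgi protease that makes the first cut in SREBP2. It had 65.3, 61.1 and 66.7 CPM in Zpbp2 KO livers, against 74.3, 75.4 and 68.1 CPM in WT livers, a log2 fold change of -0.17 ± 0.0924 (edgeR quasi-likelihood, adjusted p = 0.798). WT replicate 3 and Zpbp2 KO replicate 3 were close to each other, and the log2 fold change was -0.076 with offsets for transcript length and GC content.

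The INSIG genes varied widely between livers. Insig1, itself a target of SREBP2 and a brake on it, had 381, 315 and 744 CPM in Zpbp2 KO livers, against 443, 444 and 425 CPM in WT livers. Zpbp2 KO replicate 3 was far above all others and the other 2 knockouts were below every WT liver. The log2 fold change of 0.13 ± 0.281 turned to -0.33 without Zpbp2 KO replicate 3 (edgeR quasi-likelihood, adjusted p = 0.309). Insig2, the second brake, which liver makes from a promoter that insulin represses in mice, had 231, 294 and 129 CPM in Zpbp2 KO livers, against 171, 353 and 293 CPM in WT livers. The liver with the most Insig1 was the liver with the least Insig2, and the log2 fold change was -0.32 ± 0.327. It ran from -0.596 without Zpbp2 KO replicate 2 to -0.055 without Zpbp2 KO replicate 3, and it was -0.568 without WT replicate 1 and -0.090 without WT replicate 2.

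Among uptake and transport genes 3 of 5 were above 0, with a median of 0.09 and no gene without overlap. Npc1, which moves cholesterol out of lysosomes, had 113, 87.8 and 176 CPM in Zpbp2 KO livers, against 180, 127 and 137 CPM in WT livers. Stard4, a carrier of sterols in the cytosol, had 160, 137 and 226 CPM in Zpbp2 KO livers, against 185, 148 and 136 CPM in WT livers. For both genes the upper livers were Zpbp2 KO replicate 3 and WT replicate 1. Stard4 turned from a log2 fold change of 0.16 to -0.08 without Zpbp2 KO replicate 3, and the log2 fold change of Npc1, -0.24 over all livers, was -0.56 without it (edgeR quasi-likelihood, adjusted p = 0.309).

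Npc2, the soluble partner of Npc1, averaged 73.6 ± 8.11 CPM in Zpbp2 KO livers and 68.9 ± 8.91 CPM in WT livers. Tmem97, a sterol-responsive membrane protein, had 73.1, 70.7 and 80.5 CPM in Zpbp2 KO livers, against 77.1, 59.1 and 69.0 CPM in WT livers. Mylip, a ubiquitin ligase that LXR induces and that removes lipoprotein receptors, was the least abundant member, with 10.5, 4.43 and 9.85 CPM in Zpbp2 KO livers, against 11.7, 6.63 and 7.37 CPM in WT livers. Its lowest liver, Zpbp2 KO replicate 2, was also the lowest for Npc1 and for the Kupffer cell and endothelial markers, whose part in these values was not tested. That liver was the lowest for 7 of the 27 tested members and for 3523 of all 14686 genes. Without that liver the log2 fold change of Mylip turned from -0.06 to 0.24, and it was 0.24 without WT replicate 1.

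**Figure D3:**
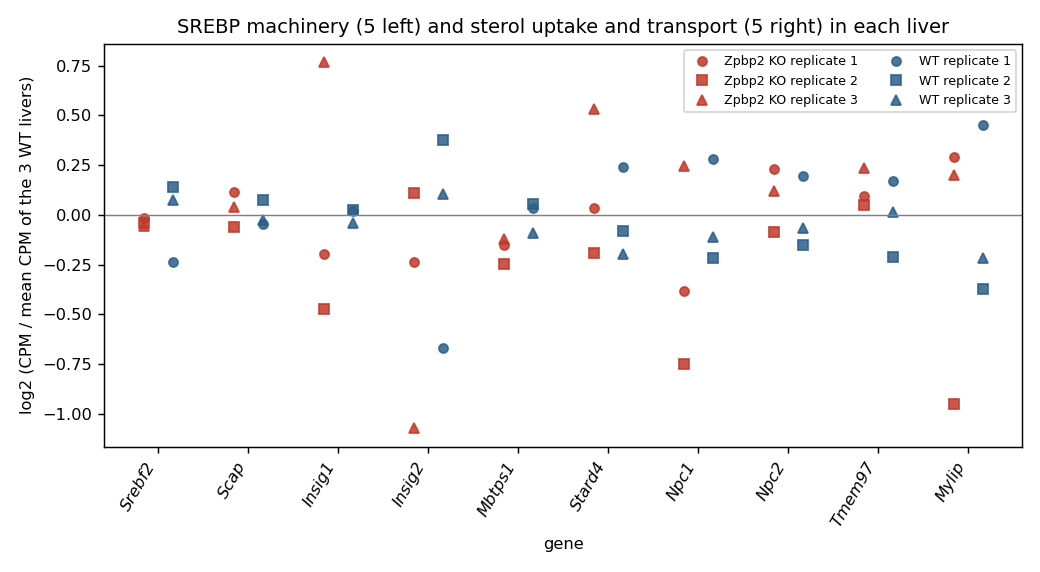
Level in each liver of the SREBP machinery (left) and of uptake and transport genes (right), as log2 of CPM over the mean of the WT livers. Red symbols are Zpbp2 KO and blue WT livers; the red triangle of Zpbp2 KO replicate 3 is the highest symbol for Insig1 (744 CPM) and the lowest for Insig2 (129 CPM).

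Spread between livers of a group was wide for 4 of the 10 members outside the enzymes. The SD of log2 CPM within groups was 0.46 for Insig1, 0.57 for Insig2, 0.54 for Mylip and 0.40 for Npc1, above 96.1%, 98.1%, 97.6% and 94.5% of the 8084 tested genes within the members' range of CPM. For Cyp51 it was 0.04 and for Nsdhl 0.05, above 1.20% and 3.85% of those genes, and Mbtps1 and Scap were narrow too at 0.07 and 0.08. The median was 0.17 over the enzymes, 0.14 over the SREBP machinery and 0.31 over uptake and transport, against 0.15 over the genes of that range. Summed, the SREBP machinery had 937, 905 and 1188 CPM in Zpbp2 KO livers and 918, 1133 and 1031 CPM in WT livers, and uptake and transport had 438, 365 and 567 CPM in Zpbp2 KO livers and 532, 403 and 415 CPM in WT livers.

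**Figure D4:**
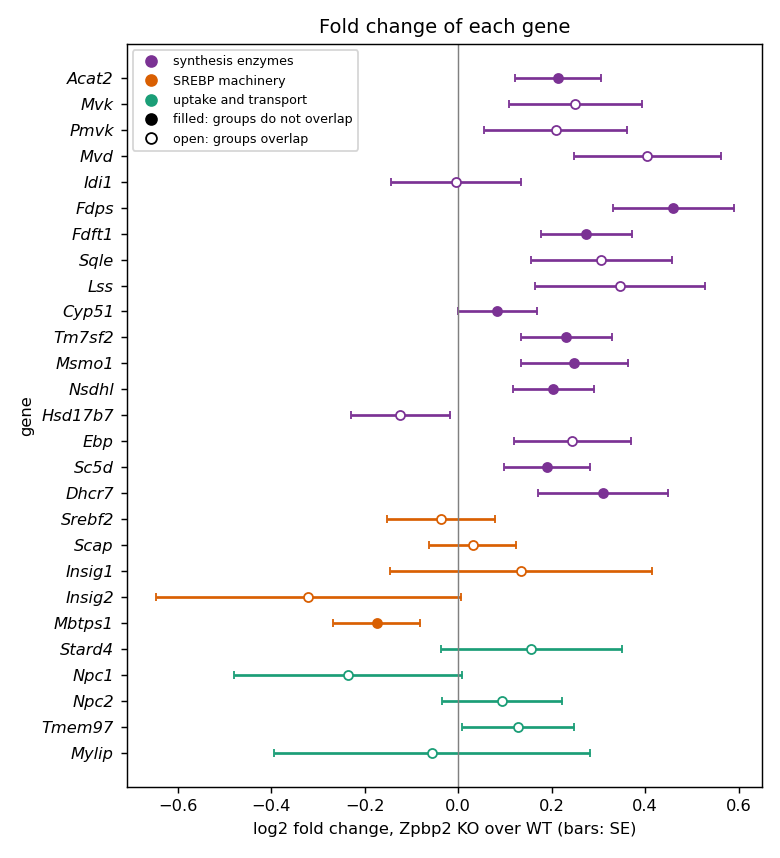
Log2 fold change of Zpbp2 KO over WT (horizontal axis) with its SE for the 27 tested members, from the start of the pathway at the top to uptake and transport at the bottom. Filled symbols mark genes whose groups do not overlap, of which 9 are enzymes to the right of 0 and 1 is Mbtps1 to the left. Of all tested genes 5.56% were higher and 6.01% lower without overlap.

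Set per length, as mean CPM per kilobase of exon over the 6 livers, the members spanned a wide range of abundance. Insig1 led with 148, followed by Sc5d with 123, Ebp with 92.2, Fdps with 71.8 and Insig2 with 70.6. The lowest levels on this scale were those of Mylip with 2.60, Mbtps1 with 6.50, Lss with 6.81 and Srebf2 with 8.71. Exon lengths came from GENCODE M21 and count every annotated exon. The sources used here do not say whether reads were counted over exons or over coding sequence alone, though 401 long non-coding genes had at least 10 counts in every library. Per kilobase of the longest coding sequence, a scale added after seeing the data, Sc5d led with 669, followed by Insig1 with 591, Insig2 with 363, Ebp with 309 and Fdps with 285. The lowest on that scale were Mylip with 6.30, Srebf2 with 18.4, Mbtps1 with 21.7 and Mvk with 22.9, while Lss had 33.4.

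Genes around the pathway were read from lists written by name, with 0 genes called in any of them by edgeR or limma-voom, and 3 called by DESeq2, all in the fasting list. Of 10 other sterol pathway genes 5 lay above 0 (median 0.03), with Erg28, a scaffold of the demethylation enzymes, at 67.5 ± 6.10 CPM in Zpbp2 KO livers and 55.5 ± 2.41 CPM in WT livers, and Cyb5r3, an electron donor, at 663 ± 59.6 CPM in Zpbp2 KO livers and 563 ± 45.7 CPM in WT livers. Neither gene overlapped. Lbr, a sterol reductase of the inner nuclear membrane named after its values were seen, was lower without overlap, with 12.1, 11.2 and 13.3 CPM in Zpbp2 KO livers, against 16.5, 13.8 and 13.9 CPM in WT livers (log2 fold change -0.28 ± 0.130).

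Among 16 genes of the isoprenoid branches of the pathway, 7 lay above 0 (median -0.0014). Icmt, which methylates prenylated proteins, averaged 41.7 ± 2.60 CPM in Zpbp2 KO livers and 49.4 ± 3.77 CPM in WT livers, and Trit1, a tRNA modifying enzyme, 17.5 ± 2.36 CPM in Zpbp2 KO livers and 14.8 ± 1.08 CPM in WT livers. Of 14 genes of sterol-regulated degradation in the endoplasmic reticulum 7 lay above 0 (median -0.02). The smallest p-values there were those of Usp20, a deubiquitinase (log2 fold change -0.37 ± 0.139), and Marchf6, a ligase that marks Sqle for degradation (-0.30 ± 0.135).

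Of 18 genes of LXR, efflux, esterification and sterol transfer, 8 lay above 0 (median -0.01) and 0 reached an unadjusted p below 0.05. Lipa, lysosomal acid lipase, averaged 231 ± 20.5 CPM in Zpbp2 KO livers and 259 ± 12.9 CPM in WT livers, and Nr1h3, which encodes LXR alpha, 111 ± 11.6 CPM in Zpbp2 KO livers and 99.7 ± 1.71 CPM in WT livers. Of 7 tested oxysterol and bile acid enzymes 4 lay above 0 (median 0.01). Akr1d1, a reductase of bile acid synthesis, was higher without overlap (0.36 ± 0.130). Cyp7a1, which sets the rate of bile acid synthesis, had 91.7, 176 and 62.9 CPM in Zpbp2 KO livers, against 73.6, 42.1 and 53.2 CPM in WT livers. Its highest liver, Zpbp2 KO replicate 2, was the lowest knockout liver in the sum of the enzymes.

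Genes of feeding and fasting were measured beside the enzymes. Of 17 lipogenic genes, which SREBP1 drives, 14 lay above 0 (median 0.25). Acss2, which activates acetate, had 326, 298 and 344 CPM in Zpbp2 KO livers, against 233, 284 and 269 CPM in WT livers, and Pnpla3, a lipase-like gene of feeding, averaged 4.33 ± 1.98 CPM in Zpbp2 KO livers and 2.07 ± 0.588 CPM in WT livers, with overlap. Srebf1, named after its values were seen, was highest in Zpbp2 KO replicate 3 at 544 CPM, the liver with the most Insig1. Of the 17 lipogenic genes 11 were highest in that liver and 4 in WT replicate 1. The list summed to 13040, 13690 and 15810 CPM in Zpbp2 KO livers, against 15460, 11450 and 12820 CPM in WT livers.

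Fasting-induced genes lay the other way, with 1 of 12 above 0, a median of -0.64 and 4 lower at an unadjusted p below 0.05. Pdk4, a kinase that inactivates pyruvate dehydrogenase, had 6.36, 6.25 and 4.02 CPM in Zpbp2 KO livers, against 12.9, 13.5 and 21.5 CPM in WT livers. Irs2, an insulin receptor substrate, averaged 10.1 ± 4.09 CPM in Zpbp2 KO livers and 23.8 ± 7.67 CPM in WT livers, without overlap. For Pdk4 the adjusted p was 0.287 in edgeR and 0.302 in limma-voom, while DESeq2 called it (adjusted p = 2.53e-06). DESeq2 also called Irs2 (adjusted p = 0.0284) and Igfbp1, an insulin-repressed binding protein (adjusted p = 0.0344), which edgeR did not. Summed, the list had 5127, 5556 and 5741 CPM in Zpbp2 KO livers, against 8421, 6235 and 6906 CPM in WT livers. WT replicate 1, the lowest liver for 12 enzymes, was the highest for 8 of the 12 fasting genes, and the part of nutritional state in the enzyme levels was not tested.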

How the data were processed

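Livers of 3 Zpbp2 KO and 3 WT mice were profiled as 1 library each. The deposited values are raw counts per Ensembl gene ID, with no normalization. STAR, Picard and HTSeq with the build mm9 are named per the submitters' processing notes; the sources used here do not give versions, annotation or strand setting. Per the labels' protocols, 250 ng of RNA was poly(A)-selected, made into directional cDNA and read as pairs of 100 cycles. Symbols came from GENCODE M21 names and a RefSeq table (32919 of 37991 IDs matched). Replicates of a group differed by far more than sampling noise (chi-square of 19.9 to 102 per gene).

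Genes passing filterByExpr (minimum count 10) were scaled by TMM and tested with edgeR 4.0.16 (quasi-likelihood F-test, two-sided, Zpbp2 KO over WT, no covariate) in R 4.3.3, with Benjamini-Hochberg adjustment over all 14686 genes and a threshold of 0.05. SE is that implied by the test, and CPM uses TMM-scaled library sizes. Spread and deviations per liver used log2(CPM + 0.5). Scripts were tested on simulated data. The p-values set the difference between the groups against the spread between livers within a group. Labels do not state how the animals were bred or caged, so litter or cage cannot be told apart from genotype. Alternatives were DESeq2 1.42.0, limma-voom (limma 3.58.1), other scalings and filters, a robust fit, a replicate block, length and GC offsets, and each library left out. Members and gene lists were chosen with earlier results of these data known; lists were not tested as sets. All members are named, and from each list of genes around the pathway the 2 with the smallest p, none being called by edgeR. Marker lists are given by counts and sums. Srebf1, Lbr, Igfbp1 and Tat were added after seeing values.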

Additional observations from a re-analysis of the deposited data

How the results depend on the processing

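Of 405 member fold changes under 15 alternatives, 395 kept their direction and stayed past no threshold, and the lowest adjusted p was 0.248 (DESeq2, limma-voom and edgeR's quasi-likelihood test, Benjamini-Hochberg adjusted). The other 10 had changed sign. Without Zpbp2 KO replicate 3 these were Insig1 (-0.331) and Stard4 (-0.075), without Zpbp2 KO replicate 2 Idi1 (0.094) and Mylip (0.243), without Zpbp2 KO replicate 1 Scap (-0.013), without WT replicate 2 Idi1 (0.096) and Srebf2 (0.038), without WT replicate 1 Mylip (0.239), with library totals Scap (0.000), and with length and GC offsets Srebf2 (0.021). Library totals also turned the median of all tested genes (-0.019) and the ratio of summed uptake and transport CPM (0.995). The cause was not tested. With a library left out, Idi1 ran from -0.104 to 0.096, Srebf2 from -0.143 to 0.038, Scap from -0.013 to 0.076, Insig1 from -0.331 to 0.363, Stard4 from -0.075 to 0.303 and Mylip from -0.264 to 0.243.

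The enzymes' median ran from 0.206 to 0.247 under other tools, scalings and filters and from 0.181 to 0.267 with a library left out, and 15 or 16 enzymes lay above 0. The 6 members higher at an unadjusted p below 0.05 became 3 with DESeq2 and 3 with library totals, and 1 to 6 with a library left out; the 0 lower became up to 3 (0 to 3). The 9 enzymes without overlap became 5 with library totals. Members called stayed at 0 throughout. Over all genes, 0 higher and 2 lower calls became 27 and 49 with DESeq2, 3 and 9 with no filter, and 0 to 1 and 2 to 4 with a library left out. With the replicate block 20 members lay above 0, 5 were higher at an unadjusted p below 0.05, and 0 were called. Same-numbered livers deviated together in replicates 1 and 2 (correlation 0.133 and 0.229) but not 3 (-0.307). Between livers of different numbers the correlation ran from -0.345 to 0.266, so the numbers were not taken as pairs. With 3 livers a group and no member called, equal levels are not shown.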
